A study of Rattus norvegicus with 24 samples.

Results

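Fast skeletal muscle genes are described here in the lungs of rats from a model of lung cancer brought on by smoky coal and sequenced as mRNA. The 10 genes, Acta1, Ckm, Mylpf, Atp2a1, Tnni2, Tnnt3, Myh1, Myh2, Myh4 and Actn3, were taken by name from a table of 30667 genes in 24 samples. They were chosen by their measured levels, which in samples A4 and B4 stood far above those in the other 22, so those levels are given as a description and were not tested. The samples are titled by a letter (A, B, C, G) and a number (1 to 6), which gives 6 samples per letter and 4 per number. Every sample is labelled as lung tissue under the smoky coal protocol, and the labels read here give no dose, time, strain, age or control for any letter, nor what the letters and numbers mean or which samples hold tumour. Nothing in the labels says that samples came from separate animals, so p-values measure only the spread between these samples, which may be technical.

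Skeletal muscle contracts when calcium, released from the sarcoplasmic reticulum, binds troponin on the thin filament and lets myosin heads pull on actin. Fast and slow fibres build this machinery from different gene copies: fast fibres use the myosin heavy chains of Myh1 (type IIx), Myh2 (type IIa) and Myh4 (type IIb), and slow fibres use Myh7, which the heart also expresses. Lung itself holds smooth muscle in airways and vessels, and in rodents heart-type muscle cells extend into the walls of the pulmonary veins. Skeletal muscle surrounds the lung in the chest wall and diaphragm, and the rat oesophagus has a wall of striated muscle. In these bulk samples a larger number of cells of a type and more RNA per cell cannot be told apart.

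The start-site regions of the members that the description turns on are shown first, because muscle genes that are high together often share short motifs near the start site. Of the 10 members, 8 matched an entry by symbol in the RefSeq promoter table of rat build GRCr8, each with 250 bases before and 50 after the start site. Motifs were searched on both strands: CAGCTG (an E-box core bound by muscle basic helix-loop-helix factors), CATTCC (bound by TEAD factors), TATAAA, the CArG box of serum response factor, and the MEF2 site. Capitals mark these motifs. Acta1 encodes skeletal alpha-actin and lies at chr19:68784145-68784444 on the minus strand. Ckm encodes muscle creatine kinase and lies at chr1:88189211-88189510 on the plus strand. The myosin genes lie on the plus strand at chr10:52384662-52384961 (Myh1), chr10:52355489-52355788 (Myh2) and chr10:52421898-52422197 (Myh4).
Acta1: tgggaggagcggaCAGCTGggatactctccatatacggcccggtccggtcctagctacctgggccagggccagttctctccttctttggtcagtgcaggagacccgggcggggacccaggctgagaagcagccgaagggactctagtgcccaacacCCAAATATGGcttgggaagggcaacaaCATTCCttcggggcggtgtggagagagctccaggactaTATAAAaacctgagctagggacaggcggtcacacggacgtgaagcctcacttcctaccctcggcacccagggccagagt
Ckm: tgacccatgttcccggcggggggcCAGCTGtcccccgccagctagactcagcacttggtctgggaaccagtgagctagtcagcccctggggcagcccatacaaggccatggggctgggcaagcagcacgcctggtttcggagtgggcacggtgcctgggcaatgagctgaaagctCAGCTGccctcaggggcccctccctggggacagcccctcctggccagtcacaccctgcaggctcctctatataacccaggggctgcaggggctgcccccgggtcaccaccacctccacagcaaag
Myh1: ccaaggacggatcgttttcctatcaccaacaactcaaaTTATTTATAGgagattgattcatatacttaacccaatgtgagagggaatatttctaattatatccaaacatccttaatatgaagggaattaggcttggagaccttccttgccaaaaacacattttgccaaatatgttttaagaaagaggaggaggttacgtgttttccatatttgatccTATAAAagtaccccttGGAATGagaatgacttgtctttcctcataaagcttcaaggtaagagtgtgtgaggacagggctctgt
Myh2: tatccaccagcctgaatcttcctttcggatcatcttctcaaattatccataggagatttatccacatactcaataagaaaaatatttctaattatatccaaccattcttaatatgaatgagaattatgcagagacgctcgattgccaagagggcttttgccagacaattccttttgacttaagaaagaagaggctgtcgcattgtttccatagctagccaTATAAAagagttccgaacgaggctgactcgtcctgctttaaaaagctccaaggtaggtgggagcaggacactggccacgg
Myh4: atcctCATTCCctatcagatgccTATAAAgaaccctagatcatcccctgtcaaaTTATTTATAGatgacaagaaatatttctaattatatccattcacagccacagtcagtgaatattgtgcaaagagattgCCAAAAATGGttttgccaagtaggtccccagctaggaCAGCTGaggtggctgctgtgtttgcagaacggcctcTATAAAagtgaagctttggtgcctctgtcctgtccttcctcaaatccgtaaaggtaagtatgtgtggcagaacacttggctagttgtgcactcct

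CAGCTG was present in 4 of the 8 member regions, Acta1, Ckm, Atp2a1 and Myh4, and in 15.1% of all 33469 promoters of that length. The CArG box was present in 2, Acta1 and Myh4, against 1.64% of all promoters, and the MEF2 site in 2, Myh1 and Myh4, against 3.29%. CATTCC was found in 3 members (14.2% of all) and TATAAA in 5 (14.2% of all). In Myh1 and in Myh4, 1 TATAAA match on the minus strand overlapped the MEF2 site, which had the same 10 letters in both genes. These matches describe letters in this window and not bound sites. In the RefSeq table the myosin genes Myh3, Myh2, Myh1, Myh4, Myh8 and Myh13 lie near each other in that order. Whether other genes lie between them was not examined. Between Tnni2 and Tnnt3 lie 5 protein-coding genes.

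The values are normalized counts per gene as deposited, and their sum per sample ranged from 61717516 in G5 to 66007148 in B4. The samples expressed lung markers throughout: 10 lung genes, from Sftpc of alveolar type 2 cells to Ager of alveolar type 1 cells, had a median of 0.914-fold in A4 and 1.14-fold in B4 of the level in the other 22. A4 was below all 22 for Sftpb (169177 normalized counts, against a lowest value of 170665) and for Sftpa1 (213686 against 225527), and B4 was above all 22 for Scgb1a1 of club cells (652541 against 591209). The median over all 30667 genes was 1.01-fold in each of the pair. Folds of A4 and B4 are throughout (value + 1) divided by (median of the other 22 + 1).

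All 10 members were higher in A4 and in B4 than in any other sample, which is how they were chosen. Together they took 0.147% of the summed values in A4 and 0.0329% in B4, where the other 22 ranged from 0.00277% to 0.00606% with a median of 0.00337%. A gene was counted as standing apart when it lay above all 22 other samples and at least 4-fold over their median. By that count 10 members stood apart in A4, where 1.66% of all genes did, and 8 in B4, where 0.483% did; the same 8 stood apart in both, where 0.264% of all genes did. The members just outside it in B4 were Mylpf, at 2.53-fold, and Tnnt3, at 2.86-fold, and the nearest inside was Actn3 at 8.38-fold.

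**Figure D1:**
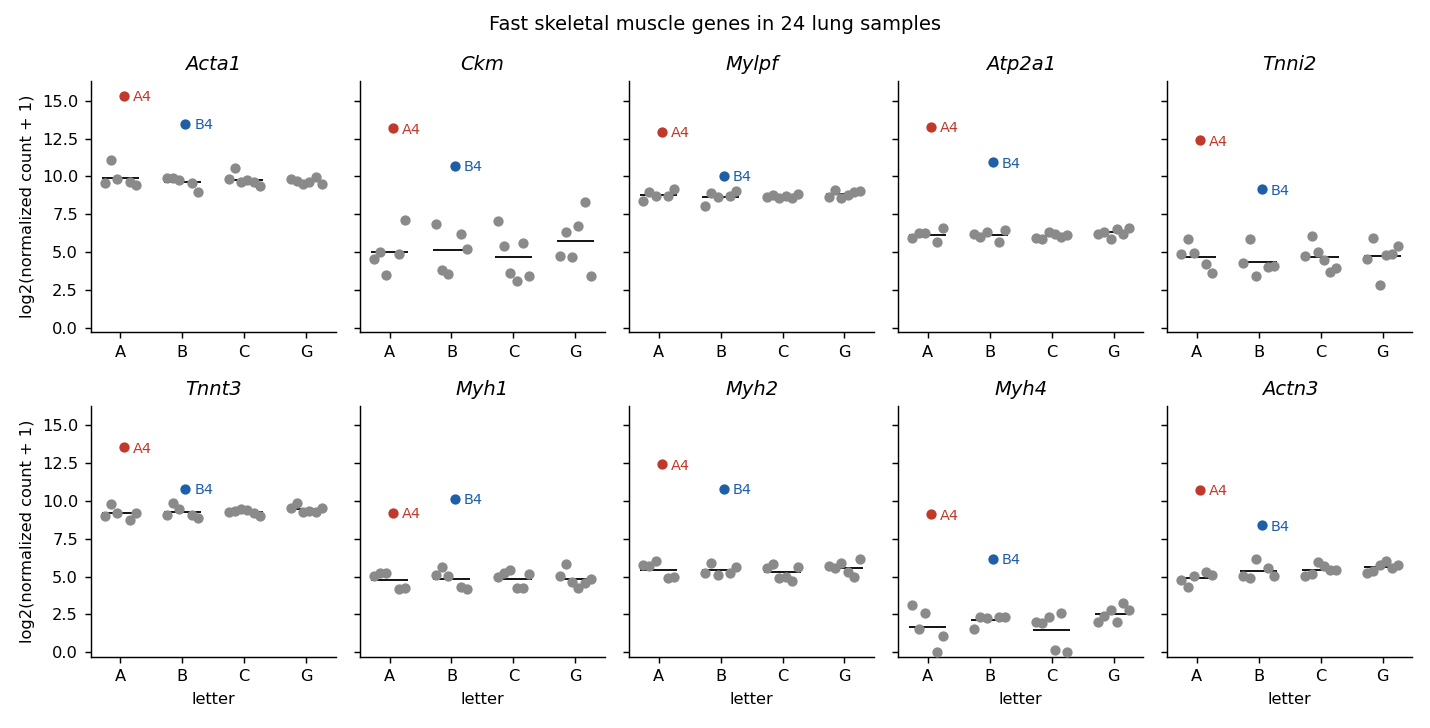
Each panel shows a member's log2(normalized count + 1) in the 24 samples by letter, ordered by number 1 to 6 within a letter; red is A4, blue is B4, grey the other 22, and black lines are the letter means without A4 and B4. Acta1 reached 41069 normalized counts in A4 and 11389 in B4, and Myh1 alone among the 10 was higher in B4 than in A4.

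Among the thin-filament genes, Acta1 reached 41069 normalized counts in A4 against 11389 in B4, and ran from 500.2 to 2119 across the other 22 with a median of 817.3. Both were far outside that range, at 50.2-fold and 13.9-fold over the median, although every sample held some Acta1. Tnni2, the fast form of the inhibitory troponin subunit, had 5360 in A4, 559.7 in B4 and 5.99 to 65.5 (median 23.7) in the others. Tnnt3, the fast form of the troponin subunit that binds tropomyosin, had 11916 in A4 and 1791 in B4. Its range in the others was 418.7 to 949.6, with a median of 625.6, so B4 was 1.89-fold over the highest of them. Every lung sample thus held at least 418.7 normalized counts of Tnnt3, while none of the 22 passed 65.5 for Tnni2.

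Among the thick-filament genes, Myh2 reached 5509 normalized counts in A4 against 1771 in B4, against 24.8 to 71.0 (median 46.8) in the other 22. Myh4 had 555.0 in A4, 72.1 in B4 and at most 8.75 in the others, and the others ranged down to 0.0 in C6. Myh1 went the other way between the pair, with 597.1 in A4 and 1129 in B4, against 17.1 to 55.3 (median 30.7). A4 and B4 lay above all 22 for each of these myosins, which is how the members were chosen. Mylpf, the regulatory light chain of fast myosin, had 7859 in A4 and 1051 in B4, and 267.5 to 564.1 (median 415.4) in the others. Actn3, the alpha-actinin that anchors thin filaments at the Z-disc of fast fibres, had 1725 in A4, 334.4 in B4 and 18.7 to 70.5 (median 39.0) in the others.

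For calcium uptake and energy, Atp2a1, the calcium pump of the fast-fibre sarcoplasmic reticulum, reached 9804 normalized counts in A4 against 1939 in B4. The other 22 lay in a narrow band from 50.2 to 95.7 (median 72.2), so A4 was 134-fold and B4 26.5-fold over their median. Ckm, which regenerates ATP from phosphocreatine, had 9185 in A4 and 1656 in B4. It was the most variable member in the others, from 7.42 in C4 to 309.9 in G5 with a median of 29.3, a 36.9-fold range on the value + 1 scale. For the remaining members that range was 1.89-fold (Atp2a1) to 9.74-fold (Myh4).

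The pair differed in composition as well as in level. A4 exceeded B4 for 9 of the 10 members, from 3.11-fold for Myh2 to 9.56-fold for Tnni2, while Myh1 was at 0.529-fold. Taken as the excess over the median of the other 22, the ratio of A4 to B4 was 11.7 for Mylpf, 9.69 for Tnnt3, 9.96 for Tnni2, 3.81 for Acta1, 3.17 for Myh2 and 0.516 for Myh1. With 1 sample on each side these ratios have no replicate check.

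Paralogs from slow and developing muscle separated A4 and B4 further (these values come from the samples that chose the members and are given without a test). Tnnt1, the slow troponin T, had 1351 normalized counts in B4 and 138.1 in A4, against at most 67.3 in the other 22. Myl2, the regulatory light chain of slow and ventricular muscle, had 778.8 in B4, 198.8 in A4 and at most 47.8 in the others. Myh7 and the slow troponin I gene Tnni1 were close in the pair, at 2164 and 478.0 in B4 and at 1952 and 408.0 in A4. In the other 22 samples Myh7 reached 1068 in G5 and Tnni1 reached 171.4 in G2. Of 9 genes listed for slow muscle, 4 (Myh7, Myl2, Tnnt1 and Tnni1) were lower in A4 than in B4, and 5 were higher; among those, Myl3, an essential light chain shared with the ventricle, was at 7222 in A4 and 875.7 in B4.

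The developmental and specialised myosins near the fast genes were much higher in A4 than in B4. Myh8, the perinatal heavy chain, had 29399 normalized counts in A4, 48.7 in B4 and at most 8.74 in the other 22, a 592-fold ratio of A4 to B4. Myh3, the embryonic heavy chain, had 559.4 in A4 and 31.0 in B4, with at most 19.4 in the others. Myh13, the heavy chain best known from eye muscles, had 704.0 in A4 and 30.01 in B4, with at most 8.78 in the others. All 6 genes of the myosin cluster were therefore higher in A4 and in B4 than in any of the 22. The order of the pair reversed at Myh1. The heavy chains are close paralogs, and how reads shared between them were counted is not given in the sources used here, so the split among them is uncertain. Of 14 developing-muscle genes, 7 stood apart in A4 and 4 in B4. The 7 in A4 included Myf6 (226.7 against at most 4.015 in the others), Myog (88.2 against 18.4) and Myf5 (34.6 against 3.997). In B4 Myf6 stood apart at 13.4, while Myog (10.3) and Myf5 (0.0149) did not. These genes were added after their values were seen. Pax7, a marker of muscle stem cells, did not stand apart, at 55.9 in A4 and 37.2 in B4 against 12.3 to 54.4 in the others. Nor did Myod1, a marker of myoblasts, at 32.0 and 13.4 against 4.86 to 22.2. Chrng, a fetal acetylcholine receptor subunit, was at 134.0 and 93.0, within the 82.5 to 184.6 of the others.

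**Figure D2:**
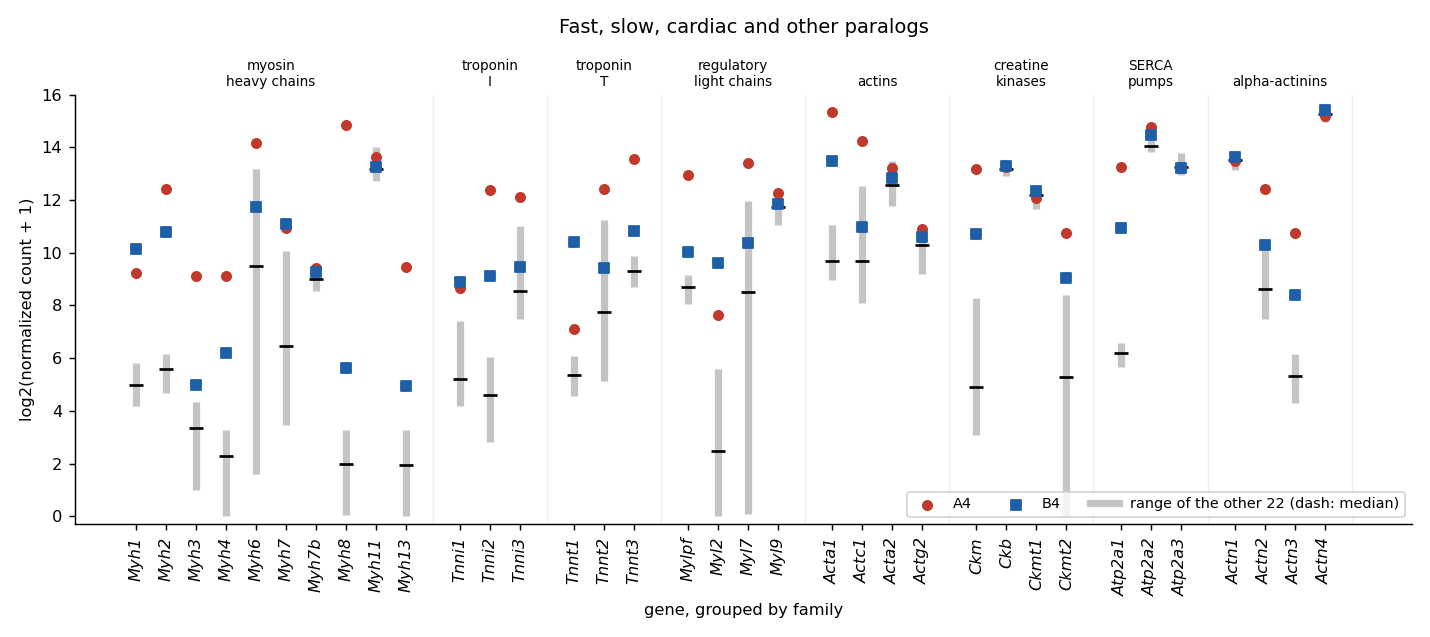
Level of each paralog, as log2(normalized count + 1), in A4 (red circle) and B4 (blue square), beside the range (grey bar) and median (dash) of the other 22 samples. Fast members such as Atp2a1 and Myh2 lie far above short grey bars, cardiac genes such as Myh6 and Myl7 have long bars, and Tnnt1, Myl2 and Myh1 are higher in B4 than in A4.

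The families also show which relatives were flat. Ckb, the brain-type creatine kinase, was at 9757 in A4 and 9987 in B4, within the 7643 to 10336 of the other 22. Ckmt1, a mitochondrial form, was likewise inside its range, whereas Ckmt2, the mitochondrial form of striated muscle, was at 1719 and 521.1 against at most 338.1. The widely expressed alpha-actinins Actn1 and Actn4 and the pump Atp2a3 were inside the range of the 22 in both samples. Atp2a2, the pump of slow, cardiac and non-muscle cells, was above it, at 27821 and 22368 against at most 21832. Smooth muscle actins were inside it, with Acta2 at 9611 and 7356 and Actg2 at 1906 and 1560.

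Other genes of the contractile and calcium machinery followed the members in part. Of 16 further sarcomere genes, 11 stood apart in A4 and 7 in B4, with medians of 15.6-fold and 4.32-fold. Ttn, the giant spring of the sarcomere, reached 16918 normalized counts in A4 against 5504 in B4, with 710.7 to 2863 in the other 22. Neb, which spans the thin filament, had 12856 in A4 and 7448 in B4, with 4191 to 9856 in the others, so B4 was inside the range. Of 13 genes of calcium release, 9 stood apart in A4 and 4 in B4, with medians of 8.71-fold and 2.50-fold. Ryr1, the release channel of skeletal muscle, had 4344 in A4, 1344 in B4 and 400.2 to 638.6 in the others. Of 11 genes of muscle energy supply, 7 stood apart in A4 and 4 in B4. Pygm, muscle glycogen phosphorylase, had 8152 and 2484, against 1262 to 2435, and Fbp2 was at 387.5 and 403.9, low in the range of 379.3 to 702.5.

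Markers of other tissues differed between A4 and B4, and their part in the muscle signal was not tested. All 12 cardiac genes stood apart in A4 and 0 of 12 did in B4; their summed level was 71734 in A4, 9840 in B4 and 863.8 to 28611 in the other 22. Myh6, the atrial heavy chain and in rodents also the adult ventricular one, had 18330 in A4 and 3452 in B4, with 2.01 to 9136 in the others. Actc1, cardiac alpha-actin, had 19416 and 2012, with 275.7 to 5979 in the others. Of 12 genes found in the table out of 13 listed for squamous epithelium such as that lining the oesophagus, 9 stood apart in A4 and 0 in B4; they summed to 19521 in A4, 1916 in B4 and 1220 to 1976 in the others. In B4 the defining squamous genes were in the range of the other samples, with Krt13 at 34.2 (others 13.7 to 78.6) and Lor at 2.18 (others 0.0 to 9.505), and of the 12 only Krt14, a keratin of basal cells, was above all 22 (926.5 against at most 883.5). Of 9 smooth muscle genes, 0 stood apart in either sample. Their sum was 47551 in A4 and 31938 in B4, with 20314 to 47118 in the others. Only 3 of the 9 were above all 22 in A4, and 0 in B4. Among the 3 was Des, at 12254 in A4 with 3005 to 6600 in the others, so the high sum in A4 rests in part on Des. Of 8 fat genes 0 stood apart, but their median was 14.75-fold in A4 and 1.01-fold in B4, and they summed to 8571 in A4, 1230 in B4, 21201 in A2 and at least 789.9 in the others. Adipoq, a hormone of fat cells, was 1404 in A4 and 20.8 in B4, with 2283 in A2 and at most 398.5 in the remaining samples.

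**Figure D3:**
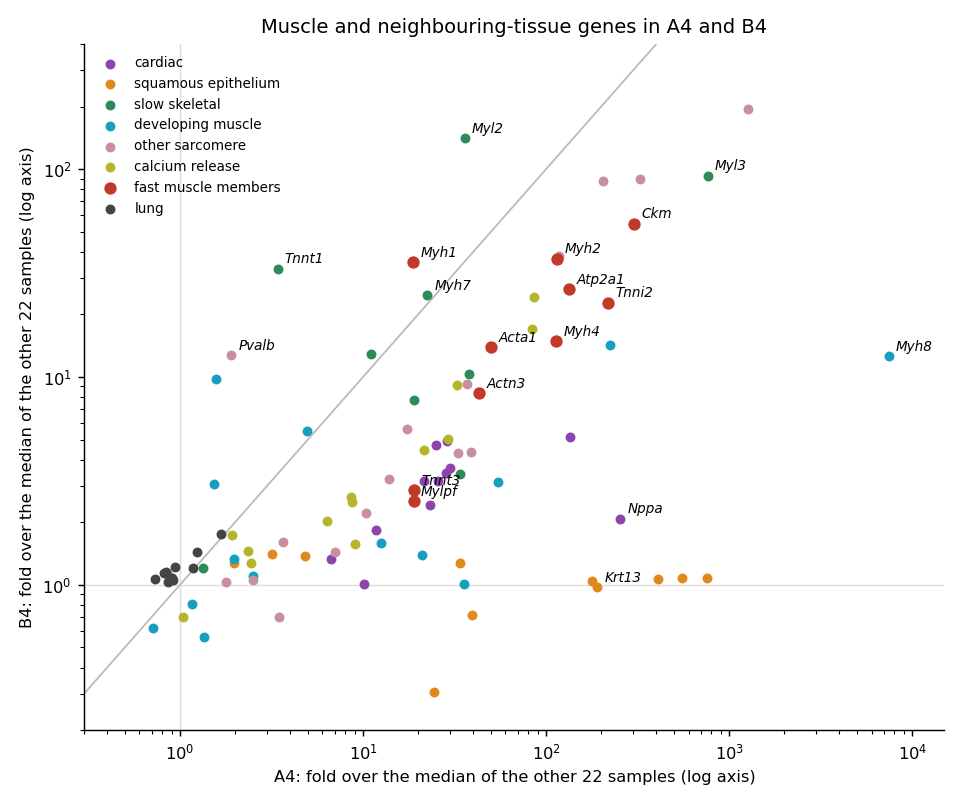
Fold of A4 (x axis) and of B4 (y axis) over the median of the other 22 samples, on log axes, for listed genes coloured by list; the grey diagonal marks equal folds. Fast members lie below the diagonal except Myh1, squamous genes have a median fold of 1.08 in B4, and the slow genes Tnnt1 and Myl2 lie above the diagonal.

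The genes whose pattern over the 24 samples was most like the mean of the members included other muscle genes. By Pearson correlation of log2(value + 1) with the mean of the 10 members, over 21912 other genes with a mean of at least 10, the first 6 included Mylf-ps (r = 0.97), Myl3 (0.945), Myot (0.936), Ryr1 (0.936) and Ttn (0.935). Mylf-ps carries the name of a pseudogene of a fast myosin light chain and was at 242.1 normalized counts in A4, 19.6 in B4 and at most 2.03 elsewhere. Whether it shares reads with a light chain gene was not tested, so its level is uncertain. Myot encodes myotilin of the Z-disc. These coefficients rest on A4 and B4, where both the members and these genes lie above all the other samples. Over the 22 samples without them the first 6 were Blnk (r = 0.75), Trim55 (0.743), Map3k7cl (0.738), Strip2 (0.737), Gm17055 (0.736) and Synpo2l (0.735), none of which was among the first 6 over 24. Within those 22 samples the 45 pairs of members had correlations from -0.436 to 0.617, with a median of 0.0927, so the members did not vary as a block there.

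Whether the members differed between the letters was tested with limma on log2(value + 1) over all 30667 genes and 24 samples. These fits include A4 and B4, which chose the members and widen their spread. For Atp2a1 in G against A the SE was 0.938 with A4 and B4 and 0.173 without them. A lack of calls on 24 samples was therefore likely from the start, and no conclusion is drawn from it. In the test across the 4 letters, 0 of 10 members had an adjusted p-value under 0.05, where 0.00652% of all genes were called. At an unadjusted p under 0.05 there were 0 members, where 3.91% of all genes passed. The same held for members in each pair, with 0 of 10 called and 0 of 10 at an unadjusted p under 0.05. Of all genes, 0% were called in the pairs without G. In the pairs with G the called share was 0.00652% against A, 0.00326% against B and 0.00652% against C. Unadjusted, the share of all genes ran from 1.82% (C against B) to 8.15% (G against A). At such shares 0 of 10 members is unremarkable, so nothing is read from it. The members' median log2 fold change was -0.348 in B against A, -1.14 in C against A, -0.666 in C against B, -0.659 in G against A, -0.384 in G against B and 0.183 in G against C. Over all genes those medians were between -0.00755 (B against A) and 0.00111 (C against B). Without A4 and B4 the medians were 0.025, -0.0828, 0.00878, 0.144, 0.192 and 0.183 in the same order, so all except G against C, which uses neither sample, came closer to 0 or turned positive.

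Acta1 shows how far these letter means rest on A4 and B4. Without that pair its means ± SD were, as normalized counts, 1050 ± 603 for A, 803.7 ± 192 for B (n = 5 each), 907.0 ± 297.5 for C and 828.3 ± 116 for G (n = 6 each). The log2 fold change of G against A was -1.12 (SE 0.75, limma adjusted p = 0.733) with all samples and -0.21 (SE 0.24, adjusted p = 0.827) without the pair. Without A4 and B4 again 0 of 10 members were called in any letter test, where 0.00326% of all genes were called across the letters, 0.00326% in G against A and in G against B, 0.00653% in G against C, and 0% in the pairs without G. At an unadjusted p under 0.05 there was 1 member across the letters (3.84% of all genes), 1 in C against A (2.52%), 1 in G against A (8.39%) and 1 in G against C (4.18%), so 1 of 10 was near the share of all genes. Actn3 in G against A had a log2 fold change of 0.70 (SE 0.24, limma adjusted p = 0.47). Actn3 averaged 29.95 ± 7.51 normalized counts over the 5 A samples and 48.9 ± 10.1 over the 6 G samples (mean ± SD).

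Between the numbers some members were called, as was a large share of all genes. Since A4 and B4 share the number 4, the test across the 6 numbers, with the letter as a term, was read without them, a choice made after seeing the data. In the 22 samples 6 of 10 members were called by limma (Mylpf, Myh1, Tnnt3, Acta1, Actn3 and Tnni2), where 26.9% of all genes were called. The share was larger among genes with a mean of at least 10, where 8745 of 21879 were called, again with 6 members. Whether the members exceed that share was not tested, so the 6 calls are not read as particular to them. With all 24 samples 4 of 10 were called (Acta1, Atp2a1, Tnni2 and Actn3), against 31.5% of all genes, and 3 of the 4 were also among the 6. A robust variance estimate on the 24 samples gave 0 of 10 calls, and on the 22 samples 6 of 10. On the 24 samples, leaving out B4 alone gave 0 of 10, A4 alone 1, G4 alone 8 and C4 alone 9, and leaving out any other single sample gave 2 to 4.

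Tnni2 was high in the samples numbered 2, with 56.1 normalized counts in A2, 56.7 in B2, 65.5 in C2 and 59.5 in G2. All the other samples outside A4 and B4 lay between 5.99 and 41.8 (limma F test across numbers over 22 samples, adjusted p = 0.0284). Myh1 averaged 44.5 ± 9.12 at number 2 (SD, n = 4), 31.8 ± 1.36 at number 1 and 19.3 ± 2.70 at number 5 (adjusted p = 0.00761). Number 4 held only C4 and G4 here, at 17.8 and 18.2. Tnnt3 averaged 848.2 ± 141 at number 2 and 538.7 ± 87.6 at number 5 (adjusted p = 0.0196).

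Mylpf was highest at number 6, with 517.2 ± 44.1 normalized counts (SD, n = 4), followed by 491.4 ± 54.7 at number 2, and lowest at number 1 with 346.8 ± 61.3 (limma adjusted p = 0.00382). Acta1 was highest at number 2 with 1345 ± 591, which rested on A2 (2119) and C2 (1490), and lowest at number 6 with 637.0 ± 94.4 (adjusted p = 0.0211). Actn3 had another order, with 57.8 at number 4 (C4 and G4 only), 54.2 ± 16.24 at number 3 and 30.7 ± 9.25 at number 2 (adjusted p = 0.0282). Ckm (adjusted p = 0.322), Atp2a1 (0.192), Myh2 (0.177) and Myh4 (0.529) did not pass the threshold. Mylpf and Myh1 stayed called whichever of the 22 samples was left out. Tnni2 was lost without A2, B2, C2 or G2 (adjusted p up to 0.101), Tnnt3 without A2 or B2 (up to 0.0819), and Acta1 without B6 or C2 (up to 0.0787). Actn3 was lost in 8 of the 22 fits, those without A2, B1, B2, B3, C1, C3, G1 or G4 (up to 0.0684). The count of members fell from 6 to 3 without A2 or without B2.

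In the same test on 22 samples, where 26.9% of all genes were called, so were 8 of 9 smooth muscle genes and 8 of 10 lung genes. Of the further sarcomere genes 4 of 16 were called, near that share, and of the slow muscle genes 1 of 9. Of 11 cardiac genes 0 were called by limma, with 2 at an unadjusted p under 0.05.

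**Figure D4:**
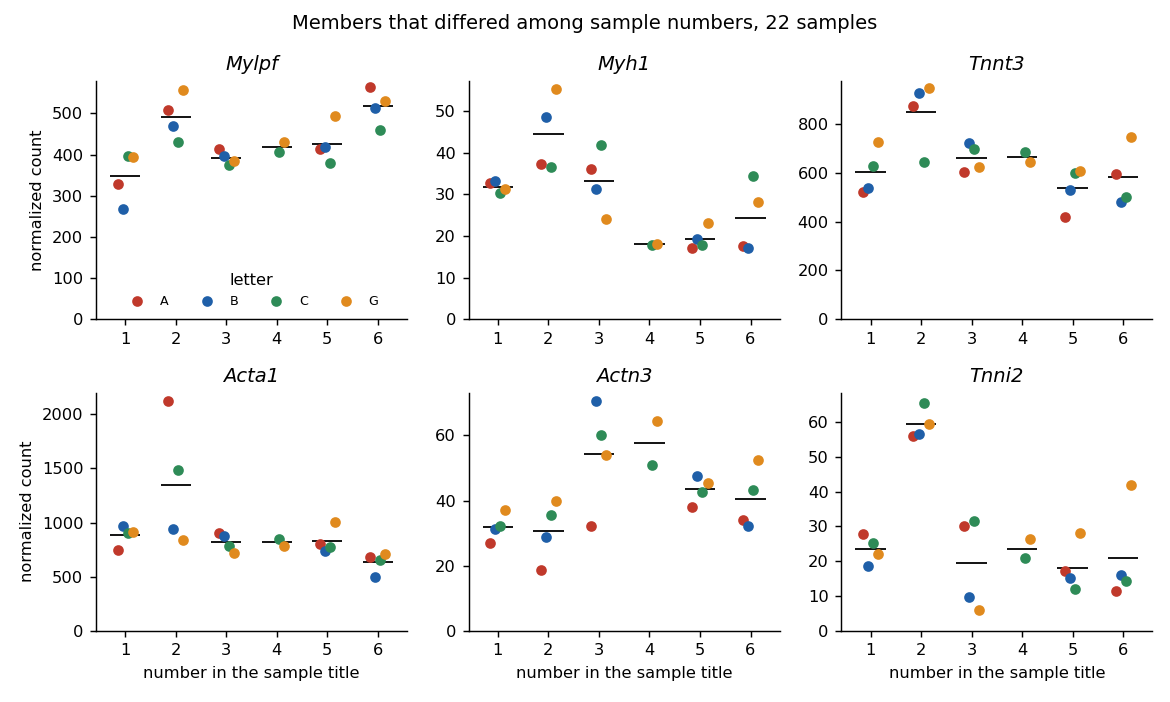
Normalized counts of the 6 members called between numbers, in the 22 samples without A4 and B4; colours are letters and black lines are means per number. Tnni2 is at 56.1 to 65.5 in the 4 samples numbered 2, while Mylpf has its highest mean at number 6 and Actn3 at number 4.

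Ckm varied with the cardiac genes in the 22 samples. Its log2 level against the mean centred log2 level of the 12 cardiac genes had Pearson's r = 0.948 and Spearman's rho = 0.944 (permutation test with 100000 permutations, p = 1e-05 for each, the smallest they can give; adjusted p = 0.0002 over 20 relations). Without A3 and G5, the samples farthest from the median of the cardiac level, r was 0.933. Within letters r was 0.928 in C and 0.973 in G (n = 6 each), and no value is given for A and B, which hold 5 samples each. Samples of the same number resemble each other, so the 22 are not fully independent. For the 9 other members r with the cardiac level lay between -0.249 (Myh2) and 0.187 (Acta1), with permutation adjusted p-values from 0.582 to 0.907. With the smooth muscle genes none of the 10 members passed the threshold (permutation adjusted p at least 0.32 for r and 0.131 for rho). Whether the correlation of Ckm differs from those of the other members was not tested.

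**Figure D5:**
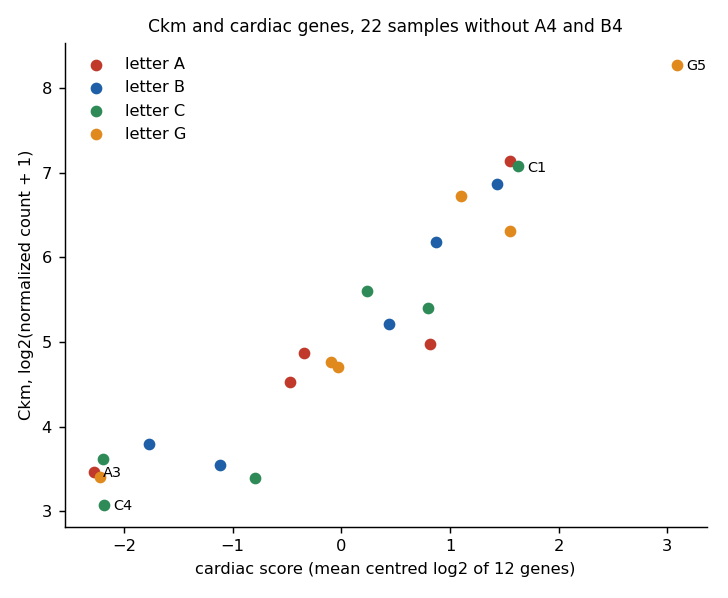
Ckm as log2(normalized count + 1) against the cardiac score, the centred log2 level averaged over 12 cardiac genes, in the 22 samples without A4 and B4, coloured by letter. The 6 samples with the lowest scores have 7.42 to 12.9 normalized counts and G5, with the highest score, has 309.9.

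G5, the sample with the highest Ckm among the 22, also had the highest level there of 11 of the 12 cardiac genes (Nppb was highest in A2), with Myh6 at 9136 normalized counts and Actc1 at 5979. For the members apart from Ckm and Myh4, G5 was neither the highest nor the lowest of the 22. Among them Tnni2 was 28.0, Myh2 30.9 and Atp2a1 73.5. G5 had the highest Myh4 of the 22, at 8.75. C4 and G4, which share their number with A4 and B4, were inside the range of the rest for these members: Atp2a1 was 71.9 and 92.8, Myh2 30.3 and 38.4, and Acta1 846.0 and 785.9.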

How the data were processed

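Lung mRNA of 24 rat samples was sequenced, and the authors deposited 1 table of signal values, which are normalized counts per gene. Per the submitters' processing notes, STAR and the build GRCm38, a mouse build, were used; the counting, strand setting, annotation and normalization are not given in the sources used here. What matching rat reads to a mouse build does to near-identical paralogs was not tested. On a scale of 0.96 to 1.05 per sample, 98.3 to 100% of low values lay within 0.1 of a whole number; the read depth itself is unknown, so only signal values were tested. Of 30667 rows, 16143 (52.6%) matched a symbol in the RefSeq table of rat build GRCr8; among the 10 members 9 did, and Mylpf matched as a synonym.

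Values were tested as log2(value + 1), for genes with a mean of at least 0.5, with limma 3.58.1 in R 4.3.3, Benjamini-Hochberg adjustment over all genes and a threshold of 0.05. The code was tested on simulated data. The letter contrasts used all letters in 1 fit, and the test across numbers had the letter as a term. The members and lists were chosen with earlier results of these data known. Named genes were the 10 members, their paralogs by family, up to 6 genes per list with the highest mean over the 24 samples, and the 6 genes most like the members over 24 and over 22 samples. Of these, 1 gene is not reported here. Deviations from letter means of same-numbered samples correlated above 0.1 in all 6 pairs of B against A (0.169 to 0.59) and of C against B (0.127 to 0.596), so numbers pair the samples there, by the data and not by a label; in the other contrasts at least 1 pair fell short. Alternatives were other scalings, pseudocounts, filters, a robust variance, the replicate block and samples left out.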

Additional observations from a re-analysis of the deposited data

Results flagged for a closer look

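Each member was examined within each letter (6 samples) for a highest or lowest sample whose gap to its nearest neighbour exceeded Dixon's 95% critical share of the group's range. All 20 groups of letters A and B had A4 or B4 as that sample, which follows from how the members were chosen and is no test. In A4 the normalized counts were 41069 for Acta1, 9185 for Ckm, 7859 for Mylpf, 9804 for Atp2a1 and 5360 for Tnni2. They were 11916 for Tnnt3, 597 for Myh1, 5509 for Myh2, 555 for Myh4 and 1725 for Actn3. In B4 they were 11389 for Acta1, 1656 for Ckm, 1051 for Mylpf, 1939 for Atp2a1 and 560 for Tnni2. For the remaining genes B4 had 1791 for Tnnt3, 1129 for Myh1, 1771 for Myh2, 72.1 for Myh4 and 334 for Actn3.

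In letters C and G 5 of 20 groups had such a sample, each time the highest. Chance gives about 1 in 20 for normally distributed values, and whether these untransformed counts are so distributed was not tested. Acta1 was 1490 in C2, where the next C sample had 901, and Tnni2 was 65.5 in C2, where the next had 31.6. Ckm was 134 in C1, with 47.7 next, and 310 in G5, with 105 next. Myh1 was 55.3 in G2, with 31.2 next.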

How the results depend on the processing

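The number of members called between letters was 0 of 10 under every alternative run. Most of these runs kept A4, B4 or both, whose levels widen the spread of the members. With the title number as a replicate block, genes called over the table numbered 12 across the letters, 391 in G against A, 2 in G against B and 11 in G against C, and 0 in B against A and C against B, where the numbers pair the samples. Without A4 and B4 those counts were 1 across the letters and 1 in G against A, and with the block as well 6 across the letters, 183 in G against A and 15 in G against C. Across the letters quantile normalization, 75th percentile scaling and a pseudocount of 10 gave 1 gene each. The members' median log2 fold change of C against A was -0.0828 without A4 and B4, and -0.0627 with the block as well. In the test across numbers on 24 samples a pseudocount of 10 gave 2 members and a robust variance 0. The cause of these shifts was not tested.

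Leaving out each sample in turn gave 1 to 2 genes across the letters, 1 to 4 in G against A, 1 to 2 in G against B and 1 to 2 in G against C. The members' median ranged from -1.0 to 0.819 in B against A and from -1.42 to -0.0828 in C against A, with 0.819 and -0.0828 both without A4. It ranged from -0.901 to 0.00878 in C against B, -0.964 to 0.144 in G against A, -0.711 to 0.192 in G against B and 0.148 to 0.25 in G against C. Members called across numbers ranged from 0 to 9 on 24 samples and from 3 to 6 on 22. Having no filter removed or added no gene on 24 samples. Read depth is unknown, which leaves the counting error of low members such as Myh4 without an interval.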

Other observations

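Some muscle genes of the fast and developing lists did not follow their partners, and they were picked here after their values were seen. Tnnc2, the calcium-binding subunit of fast troponin, was at 9.23 normalized counts in A4 against 1.054 in B4, where Tnni2 was at 5360 and 559.7. The rat reads were matched to a mouse build, and whether that lowered the count of single genes such as Tnnc2 was not tested. Pvalb, a calcium buffer of fast fibres, was 178.4 in B4 and 25.95 in A4, with at most 30.2 in the other 22. Chrnd, an acetylcholine receptor subunit of muscle, was 18.3 in B4 and 2.08 in A4, whereas Chrna1, another subunit, was 3.12 and 61.2.

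A2, which had the highest Acta1 of the 22 samples, also had the highest level there of 7 of the 8 fat genes (Cfd was highest in B2). Ucp1, the uncoupling protein of brown fat, was 6881 in A2, 273.3 in A4 and 8.39 in B4. By the rule of lying above all others compared and at least 4-fold over their median, 577 genes stood apart in A2, the most among the 22 samples, where the median was 59.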
